A study of Rattus norvegicus with 42 samples.

Results

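Elongating RNA polymerase II in rat liver was compared between a constant corticosterone (CORT) infusion and the peak of a CORT pulse taken at the same clock time. Elongating polymerase was measured by chromatin immunoprecipitation sequencing (ChIP-seq) with an antibody against RNA polymerase II phosphorylated at serine 2 of its C-terminal repeats (pSer2 Pol2), the form found along gene bodies. The comparison used 4 of the 42 libraries of the series: the 2 pSer2 Pol2 libraries labelled as constant infusion at 140 min (CONS_140) and the 2 labelled as pulsatile infusion at 140 min (PEAK_140). They were taken by those labels, although the comparison was set with earlier results of these data known. The regions were the annotated gene regions with a non-zero value in any of the 10 pSer2 Pol2 libraries. This kept 38315 of 60999 regions and 16568 of 26426 genes.

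All rats were adrenalectomised male Sprague Dawley rats, so that the infusion was their only continuing source of glucocorticoid. They had been given the synthetic glucocorticoid dexamethasone and the anti-inflammatory drug carprofen around surgery, and CORT in saline drinking water during recovery, which was withdrawn before the infusion. PEAK_140 rats received intravenous CORT, dissolved as a cyclodextrin complex, in hourly pulses of 20 min at 1 ml/h, and were taken at a pulse peak. CONS_140 rats received the same CORT solution continuously at 0.333 ml/h after a short start at the higher rate, to match the dose. The other groups were pulsatile CORT between pulses at 180 min (NADIR_180), constant CORT at 180 min (CONS_180), and vehicle given in pulses (VEH, 1 library from 140 min and 1 from 180 min). Each library was made from the pooled livers of 6 rats, and whole liver was sampled, so that fewer cells of a type and less polymerase per cell cannot be told apart.

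Corticosterone acts in liver through the glucocorticoid receptor (GR), a ligand-activated transcription factor that raises the transcription of genes of glucose and amino acid metabolism and restrains inflammatory genes. Rats release the hormone in roughly hourly pulses, and GR leaves most of its sites when the hormone clears. A constant infusion has no gaps between pulses. pSer2 Pol2 shows which genes are being read through at the moment of sampling. At 140 min hormone was present in both groups, and the comparison asked how elongating polymerase differed between them when time was held equal. The paper reports more circulating CORT at the pulse peak than during constant infusion. Delivery pattern and hormone level at sampling thus differed together, and their separate effects were not tested.

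Promoters of 4 genes are shown because they belong to genes with less pSer2 Pol2 in CONS_140 that are known to respond to growth hormone (Cish) or to inflammatory signals (Cxcl10, Cxcl1, Steap4), and they held letters of motifs of the factors known to act there. They were chosen after the values were seen. Each line gives the 250 bases before the RefSeq start site, 5′ to 3′ on the gene's strand, from assembly GRCr8. Capitals mark TTCNNNGAA, the palindromic motif of STAT factors, in Cish (chr8:116850719-116850968, plus strand), and, as a form of the kappaB motif, GGGA followed after any 2 bases by TTCC, or its reverse complement, in Cxcl10 (chr14:15988816-15989065, plus strand), Cxcl1 (chr14:17479322-17479571, minus strand) and Steap4 (chr4:27054770-27055019, minus strand).
Cish: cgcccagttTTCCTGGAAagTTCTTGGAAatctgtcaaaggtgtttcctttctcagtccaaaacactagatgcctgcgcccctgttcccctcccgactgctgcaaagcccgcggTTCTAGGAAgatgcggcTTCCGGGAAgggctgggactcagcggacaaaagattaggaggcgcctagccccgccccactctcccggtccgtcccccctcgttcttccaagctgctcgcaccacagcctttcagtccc
Cxcl10: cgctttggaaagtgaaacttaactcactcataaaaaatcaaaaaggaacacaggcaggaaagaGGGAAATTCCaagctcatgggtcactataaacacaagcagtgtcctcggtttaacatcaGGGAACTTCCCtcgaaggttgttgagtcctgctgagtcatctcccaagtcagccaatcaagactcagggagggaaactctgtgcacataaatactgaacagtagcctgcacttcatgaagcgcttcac
Cxcl1: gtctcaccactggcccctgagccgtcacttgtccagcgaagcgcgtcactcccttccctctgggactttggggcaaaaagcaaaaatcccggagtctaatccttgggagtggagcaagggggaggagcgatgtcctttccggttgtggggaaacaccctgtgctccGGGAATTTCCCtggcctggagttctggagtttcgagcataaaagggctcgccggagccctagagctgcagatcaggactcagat
Steap4: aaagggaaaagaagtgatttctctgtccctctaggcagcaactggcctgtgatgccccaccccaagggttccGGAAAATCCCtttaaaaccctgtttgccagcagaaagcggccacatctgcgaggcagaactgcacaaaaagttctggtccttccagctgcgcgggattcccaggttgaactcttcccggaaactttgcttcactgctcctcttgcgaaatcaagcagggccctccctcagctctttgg
The Cish promoter held 4 copies of the STAT motif, starting between 241 and 119 bases before the start site. Of 27457 promoters searched, 7.52% held at least 1 copy and 2 held 4 or more. Of the 12 matched promoters of the genes called lower with the replicate block (below), Cish and Steap4 held the STAT letters and that of Igf1 did not. The kappaB letters occurred at 187 and 128 bases before the start of Cxcl10, 84 bases before that of Cxcl1 and 178 bases before that of Steap4. Those 12, of 17 lower genes, included 3 (25%) with the kappaB letters, against 1 of 252 matched promoters of higher genes (0.397%) and 1.07% of all promoters. The core of the glucocorticoid response element, ACANNNTGT, was found in 1 of the 12 and in 5.62% of all promoters. Onecut1 and Socs2 had no entry. Motifs were searched on both strands, and a match is a description of the letters only.

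Before the comparison, 1 library stood apart. CONS_140 replicate 1 had a median log2 value of 6.98 over the 7900 regions whose mean value exceeded 5, against 6.18 in CONS_140 replicate 2, 5.92 and 5.81 in the PEAK_140 libraries and 5.83 to 6.52 in the other 6. The deposited values had been scaled to total tags, and the libraries held 9326927 and 8923921 tags in CONS_140 and 5666339 and 6421773 in PEAK_140, so the CONS_140 libraries were the deeper ones. The median difference between CONS_140 and PEAK_140 was 0.26 over all tested regions and 0.66 over those with a mean above 5. In the replicate 1 pair it was 1.02 over the latter and in the replicate 2 pair 0.30. A difference in this report is CONS_140 minus PEAK_140 on the log2 scale and is to be read against those medians. Low values lie close to their region's average in every library because the deposited transformation shrinks them, so a difference at a low value understates the change.

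All 10 libraries entered 1 limma fit, and calling a gene took at least 1 region with an adjusted p (Benjamini-Hochberg) under 0.05 and more than a 1.5-fold change. By this rule 5 of 16568 genes were called (0.0302%), 4 higher in CONS_140 (0.0241%) and 1 lower (0.00604%), while 3336 of 38315 regions had an unadjusted p below 0.05. Ces1f, Klf12, Insig2 and Slco1b2 were higher, and Cxcl10 was lower. Without PEAK_140 replicate 1 or replicate 2 no gene was called in limma, with 2347 and 1890 regions at an unadjusted p below 0.05, while the differences stayed close in size: 3.22 and 3.14 in Ces1f, 2.92 and 2.85 in Klf12, 2.46 and 2.52 in Insig2, 2.44 and 2.19 in Slco1b2 and -3.53 and -3.73 in Cxcl10. Without CONS_140 replicate 1, 7 genes were called, 3 higher and 4 lower, of which only Ces1f was among the 5 (the others of the 7 were Cish, Aox3, Fgg, Ppp1r3c, AABR07035343.1 and AABR07067810.1). Without CONS_140 replicate 2, the count was 3936 genes, 3911 of them higher.

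Ces1f encodes a carboxylesterase of the hepatocyte endoplasmic reticulum that hydrolyses lipid esters and drugs (chr19:15294248-15304248, rn6, plus strand, the first 10000 bases of the gene as for every longer gene here). Its values were 3.23 and 3.16 in PEAK_140 and 6.60 and 6.15 in CONS_140. VEH gave 7.40 and 7.20, NADIR_180 6.13 and 6.11, and CONS_180 6.12 and 5.86. The PEAK_140 libraries were thus below the other 8, and the CONS_140 libraries lay near NADIR_180 and CONS_180. The difference was 3.18 (SE 0.31, n = 2 per group, limma adjusted p = 0.022), a 9.07-fold change. Without CONS_140 replicate 1 it was 2.95, and in neighbouring carboxylesterase genes of near-identical sequence tags can be shared.

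Klf12, a zinc-finger transcriptional repressor (chr15:84738525-84748525, minus strand), gave 3.27 and 3.20 in PEAK_140 and 6.46 and 5.78 in CONS_140. It gave 6.71 and 6.34 in VEH and 6.92 and 7.08 in NADIR_180. Here too every library outside PEAK_140 was higher than both PEAK_140 libraries, the lowest being 4.84 in CONS_180. The difference was 2.88 (SE 0.39, limma adjusted p = 0.049), or 7.38-fold, and 2.54 without CONS_140 replicate 1, which did not pass.

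Insig2, an endoplasmic reticulum protein that holds back the activation of sterol-regulated transcription factors (chr13:37277458-37287458, minus strand), gave 6.69 and 6.75 in PEAK_140 and 9.32 and 9.10 in CONS_140. VEH gave 9.93 and 9.59. The difference of 2.49 (SE 0.31, limma adjusted p = 0.047) was a 5.62-fold change. Slco1b2, a hepatocyte transporter that takes up bile acids and drugs (chr4:175814118-175824118, plus strand), gave 6.47 and 6.23 in PEAK_140 and 8.62 and 8.70 in CONS_140, where VEH gave 8.67 and 8.51. Its difference was 2.31 (SE 0.30, limma adjusted p = 0.047), or 4.97-fold. In both genes CONS_140 was close to VEH and PEAK_140 was below all 8 other libraries. Without CONS_140 replicate 1 the differences were 2.38 and 2.35 and neither passed.

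Cxcl10, a chemokine induced by interferon and inflammatory signals (chr14:17210733-17212930, plus strand), ran the other way. It gave 6.76 and 6.56 in PEAK_140 and 3.63 and 2.44 in CONS_140. VEH gave 3.45 and 2.92, NADIR_180 3.39 and 4.79, and CONS_180 2.48 and 2.62. Only the PEAK_140 libraries exceeded 5. The difference was -3.63 (SE 0.48, limma adjusted p = 0.047), 12.4-fold lower in CONS_140. Relative to the median of the regions with a mean above 5, the 5 differences were 2.53 in Ces1f, 2.23 in Klf12, 1.83 in Insig2, 1.66 in Slco1b2 and -4.28 in Cxcl10, with no direction changed.

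**Figure D1:**
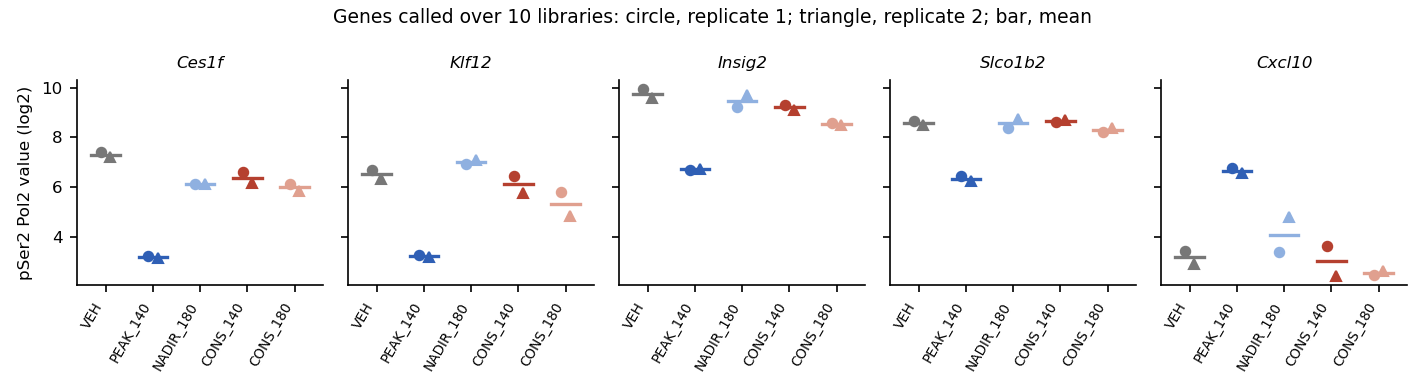
pSer2 Pol2 values (log2, vertical axis) of Ces1f, Klf12, Insig2, Slco1b2 and Cxcl10 in each library of the 5 groups (horizontal axis). Circles are replicate 1, triangles replicate 2 and bars the mean of the 2. For VEH the circle is the 140 min library and the triangle the 180 min library. PEAK_140 is below every other library in the first 4 genes and above every other library in Cxcl10.

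Fitting the replicate number as a block over the 8 CORT libraries gave a longer list. It called 339 genes (2.05%), 322 higher in CONS_140 (1.94%) and 17 lower (0.103%), with 5341 regions at an unadjusted p below 0.05 and the 5 genes above among them. The labels number the replicates but do not say that a number marks a shared batch. With 2 pairs the numbers could not be shown to pair the libraries. In the sample titles, all constant CORT pSer2 Pol2 libraries carry later library numbers than all pulsatile CORT ones. What those library numbers mark is not stated, and the block cannot adjust for them. The count depended on single libraries: the same fit called 0 genes without CONS_140 replicate 1 and 0 without PEAK_140 replicate 1 (2995 and 3111 regions at an unadjusted p below 0.05), 48 without PEAK_140 replicate 2 and 3900 without CONS_140 replicate 2. The differences themselves were found in both pairs. All 322 and all 17 genes exceeded 1.5-fold in their direction in each pair, where 80.1% of the 3415 genes with a mean above 5 exceeded 1.5-fold upward in the replicate 1 pair and 34.6% in the replicate 2 pair. The choice of genes by this difference favours that, and it is given as a description. The calls are given below as calls with the block, and the adjusted p without it stands beside them.

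**Figure D2:**
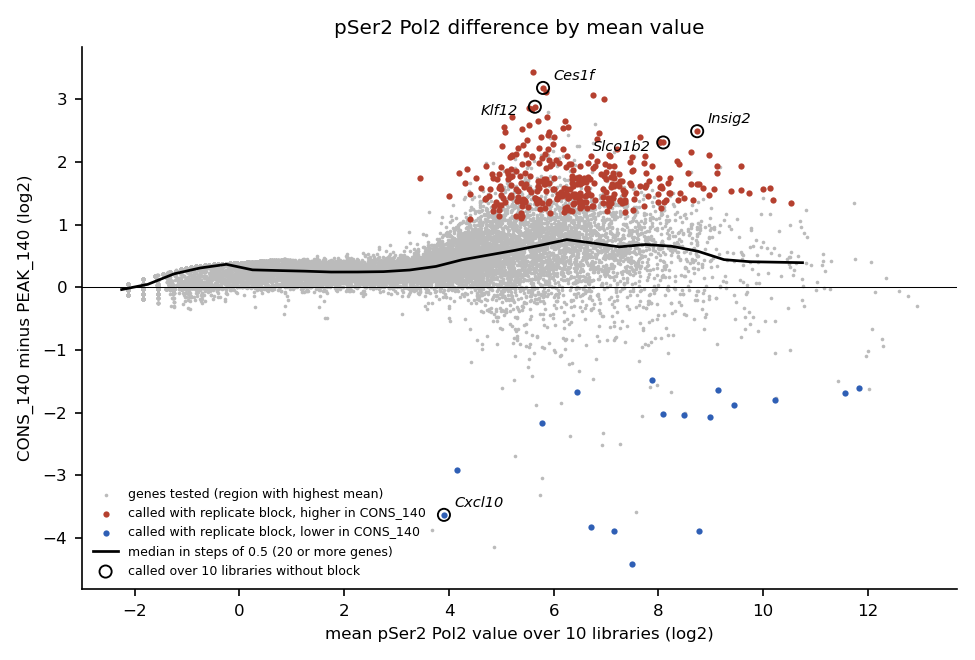
Difference between CONS_140 and PEAK_140 (log2, vertical axis) against the mean pSer2 Pol2 value over the 10 libraries (log2, horizontal axis) for each tested gene. Grey points are genes at their region with the highest mean, red and blue points genes called higher or lower with the replicate block, ringed points the 5 genes called without it, and the line the median in steps of 0.5. The line lies above 0 over nearly the whole range, and the 17 lower genes lie apart from it.

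The 17 lower genes were the smaller and the more sharply changed set. Their median difference was -2.04 (from -4.42 to -1.48), with -1.84 in the replicate 1 pair and -2.45 in the replicate 2 pair. The direction was opposite to the median shift, and both CONS_140 libraries lay below both PEAK_140 libraries in all 17, as they did in 3.72% of the genes with a mean above 5. In 13 of the 17 (76.5%) both PEAK_140 libraries were above both VEH libraries, against 10.9% of the genes with a mean above 5. In 13 (76.5%) both CONS_180 libraries were above both CONS_140 libraries, against 4.66%. The choice of these genes by CONS_140 minus PEAK_140 favours both counts.

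Cish, Socs2 and Igf1, genes known to respond to growth hormone, were among the 17, with Cish the largest change. In liver, growth hormone signals through the kinase JAK2 and the transcription factor STAT5, which raises Cish and Socs2, inhibitors of that same signal, and Igf1, the growth factor made in response to it. Cish, whose promoter is printed above (region chr8:116054465-116060723, plus strand), gave 9.06 and 8.85 in PEAK_140 and 6.44 and 2.62 in CONS_140. VEH gave 8.26 and 7.72 and CONS_180 gave 8.94 and 8.02. The difference was -4.42 (SE 0.90, limma adjusted p = 0.098, with the block 0.042), and the CONS_140 libraries differed from each other by more than in most genes. Without CONS_140 replicate 1 it was -6.33 and was called without the block.

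Socs2 gave 8.00 and 7.15 in PEAK_140, 4.88 and 2.63 in CONS_140, and 8.31 and 7.27 in CONS_180, a difference of -3.82 (SE 0.69, limma adjusted p = 0.075, with the block 0.033). VEH gave 8.06 and 7.43, so that the CONS_140 libraries alone were low. Igf1 gave 9.94 and 10.28 in PEAK_140, 8.39 and 8.08 in CONS_140, and 9.83 and 9.59 in CONS_180, a difference of -1.88 (SE 0.33, limma adjusted p = 0.071, with the block 0.038). Its VEH values were 10.63 and 10.42, and NADIR_180, at 8.99 and 8.23, was also below VEH. Onecut1, a hepatocyte transcription factor (HNF6), gave 10.47 and 9.94 in PEAK_140, 7.46 and 5.16 in CONS_140, and 10.56 and 9.85 in CONS_180. Its difference was -3.89 (SE 0.64, limma adjusted p = 0.071, with the block 0.033). In Cish, Socs2 and Onecut1 both CONS_140 libraries were below all 8 others, and in all 4 genes CONS_140 replicate 2 was the lower of the pair. Of the 15 measured genes of insulin and growth hormone signalling, Igf1 was the only lower call (0.103% of all genes were). The list as a whole did not follow it, with a median of 0.37. Only 1 member, Igf1, had both CONS_140 libraries below both PEAK_140 libraries, and Igfals differed by 0.32. Irs1, an insulin receptor substrate, was the only higher call (1.94% of all genes were). It gave 7.96 and 7.47 in PEAK_140 and 9.56 and 8.87 in CONS_140. The Irs1 region overlaps AC103270.1, and ChIP carries no strand, so the 2 cannot be told apart.

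Of the 17, Cxcl1, Steap4, Il1r1, Kng1 and Wfdc21 were, like Cxcl10, higher at the pulse peak than at both times of constant infusion. The order was not particular to inflammatory genes, since Igf1 (above) and Abhd2 shared it. Abhd2 gave 9.25 and 9.07 in PEAK_140, 7.73 and 6.51 in CONS_140 and 8.53 and 7.69 in CONS_180. The list of cytokine and inflammatory signalling as a whole did not follow Cxcl1 and Il1r1, with a median of 0.04 over 19 members. Cxcl1, a neutrophil-attracting chemokine, gave 8.63 and 9.38 in PEAK_140, 7.03 and 6.93 in CONS_140 and 7.31 and 6.93 in CONS_180. VEH gave 8.13 and 8.25 and NADIR_180 9.12 and 9.17, so that the libraries of constant infusion were below all others. The difference was -2.02 (SE 0.34, limma adjusted p = 0.071, with the block 0.035). Steap4, a metalloreductase induced by inflammatory cytokines, gave 6.13 and 6.44 in PEAK_140 and 3.82 and 2.93 in CONS_140, with 3.72 and 3.00 in VEH (difference -2.91, SE 0.44, limma adjusted p = 0.058, with the block 0.035). Its pattern was like that of Cxcl10, with only PEAK_140 above 5.

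Il1r1, the signalling receptor of interleukin-1, gave 10.22 and 10.52 in PEAK_140, 8.95 and 8.52 in CONS_140 and 8.18 and 7.70 in VEH (difference -1.64, SE 0.31, limma adjusted p = 0.080, with the block 0.040). Kng1, the precursor of bradykinin, gave 10.82 and 11.69 in PEAK_140, 11.04 and 11.10 in NADIR_180, and 9.49 and 9.44 in CONS_140, with 9.69 and 9.38 in VEH (difference -1.80, SE 0.31, limma adjusted p = 0.071, with the block 0.040). Wfdc21 gave 6.66 and 7.42 in PEAK_140 and 4.98 and 4.78 in CONS_140 (difference -2.16, SE 0.42, limma adjusted p = 0.083, with the block 0.035). In Kng1, Wfdc21 and Cxcl1 the NADIR_180 libraries, from rats taken between pulses, overlapped PEAK_140, and in Il1r1 they were lower, at 9.24 and 9.48.

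In Hacl1, a peroxisomal lyase of fatty acid alpha-oxidation, and in the serpin genes LOC299282 and Serpina3c the difference between patterns turned with time. Hacl1 gave 10.39 and 10.01 in PEAK_140, 8.27 and 7.99 in CONS_140, 7.79 and 7.50 in NADIR_180 and 10.90 and 10.57 in CONS_180, with 8.64 and 7.85 in VEH. The 2 CONS times therefore did not overlap, and neither did the 2 times of the pulse. The difference was -2.07 at 140 min (SE 0.34, limma adjusted p = 0.071, with the block 0.033). LOC299282 gave 12.62 and 12.26 in PEAK_140, 10.69 and 10.80 in CONS_140, 10.49 and 9.92 in NADIR_180 and 12.67 and 12.62 in CONS_180. Serpina3c gave 12.74 and 12.52, 10.90 and 11.14, 11.01 and 10.37, and 12.78 and 12.77 in the same groups. Their differences at 140 min were -1.69 and -1.61, and as related genes they may share tags. Aox3, an aldehyde oxidase, gave 7.37 and 7.97 in PEAK_140 and 4.97 and 2.60 in CONS_140. Abhd2, Cyp2j10 and AABR07048475.1 completed the 17, with differences of -2.04, -1.67 and -1.48.

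**Figure D3:**
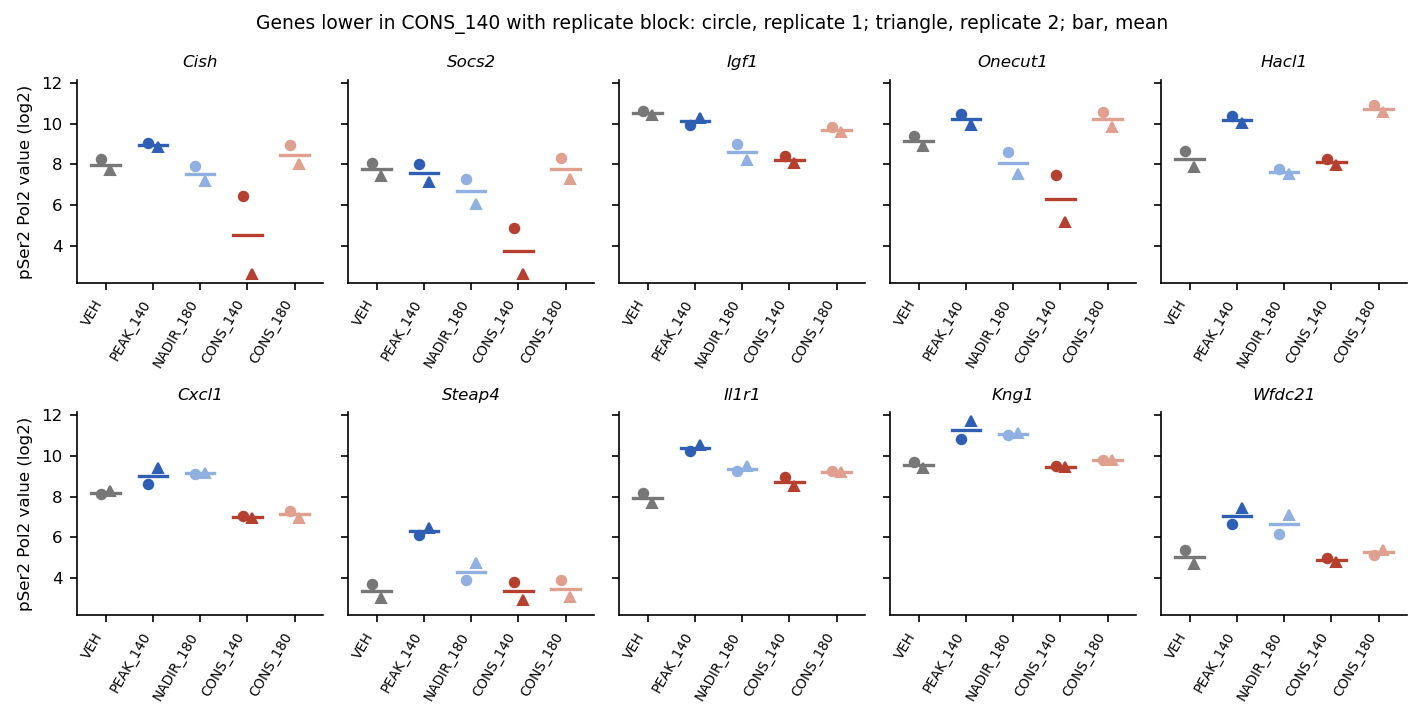
pSer2 Pol2 values (log2, vertical axis) in each library of the 5 groups (horizontal axis) for 10 of the 17 genes called lower in CONS_140 with the replicate block. Circles are replicate 1 (VEH, 140 min), triangles replicate 2 (VEH, 180 min) and bars means. In Cish, Socs2, Igf1, Onecut1 and Hacl1 the CONS_180 libraries are above the CONS_140 libraries, as they are by less in Il1r1, Kng1 and Wfdc21. In Cxcl1, Steap4, Il1r1, Kng1, Wfdc21 and Igf1 both CONS times are below PEAK_140.

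The 322 higher genes had a median difference of 1.62 (from 1.09 to 3.44), or 0.96 relative to the median of the genes with a mean above 5. Their median values were 5.51 in PEAK_140, 6.22 in VEH, 6.44 in NADIR_180, 7.11 in CONS_140 and 6.41 in CONS_180. Both CONS_140 libraries lay above both PEAK_140 libraries in 320 of them, the exceptions being Scamp4 and Crot, as they did in 57.1% of the genes with a mean above 5. PEAK_140 had the lowest mean of the 5 groups in 265 (82.3%, against 55.6% of the genes with a mean above 5) and CONS_140 the highest in 267 (82.9%, against 54.6%). The choice of these genes by CONS_140 minus PEAK_140 favours both orders. In 151 of the 322 (46.9%, against 34.5%) both VEH libraries were above both PEAK_140 libraries, and in 200 (62.1%, against 32.6%) both CONS_140 libraries were above both VEH libraries.

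The largest of these differences was in Smarca2, the ATPase of a chromatin remodelling complex, which gave 3.28 and 3.88 in PEAK_140 and 7.35 and 6.69 in CONS_140 (3.44, SE 0.61, limma adjusted p = 0.073, with the block 0.035). Dock8, an activator of small GTPases, gave 3.62 and 4.98 in PEAK_140 and 7.55 and 7.28 in CONS_140 (3.12, SE 0.52). Ptch1, the Hedgehog receptor, gave 4.02 and 3.46 in PEAK_140 and 6.96 and 6.20 in CONS_140 (2.84, SE 0.48). In these 3 genes VEH and NADIR_180 lay between 4.78 and 6.64. Ust5r differed by 3.06, Sec61a2, a subunit of the protein-conducting channel of the endoplasmic reticulum, by 2.86, the kinase gene Mast3 by 2.72 and LOC100360316 by 2.71. In Mast3 the libraries followed the replicate number, with 5.49 and 3.05 in PEAK_140 and 7.54 and 6.44 in CONS_140, and its adjusted p was 0.36 without the block and 0.033 with it.

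A first group within the higher genes had VEH above PEAK_140, so that the pulse peak was the low point. Hal, the histidine-degrading lyase, gave 8.67 and 8.42 in VEH, 6.13 and 6.26 in PEAK_140 and 8.81 and 8.21 in CONS_140 (2.31, SE 0.32, limma adjusted p = 0.053, with the block 0.033). Cyp2a1, a steroid-hydroxylating cytochrome P450, gave 9.91 and 9.77 in VEH, 6.47 and 6.97 in PEAK_140 and 9.05 and 8.71 in CONS_140 (2.16, SE 0.31, limma adjusted p = 0.053, with the block 0.033). Cyp3a18 gave 8.12 and 8.18 in VEH, 6.00 and 6.22 in PEAK_140 and 8.37 and 8.06 in CONS_140 (2.10, SE 0.31). Cyp2c13 and Cyp2e1 differed by 1.93 and 1.58. Reads of these P450 genes may be shared with close paralogs. Gpam, which starts glycerolipid synthesis, gave 7.81 and 7.18 in VEH, 5.43 and 5.44 in PEAK_140 and 7.78 and 6.63 in CONS_140 (1.77), and Bdh1, a ketone body enzyme, gave 8.51 and 7.99, then 6.11 and 5.91, then 8.06 and 7.19 in the same order (1.61). In Hal and Cyp3a18 the CONS_140 libraries lay beside or within the range of VEH and NADIR_180. Cxcl12, a chemokine that retains blood cells in tissues, was well below VEH in both PEAK_140 and CONS_140. It gave 9.0 and 8.55 in VEH, 4.41 and 4.01 in PEAK_140 and 7.03 and 5.31 in CONS_140. Its CONS_180 libraries, at 5.25 and 4.20, overlapped PEAK_140, so that the pulse peak was not its only low point.

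A second group had PEAK_140 near or above VEH and CONS_140 higher still. Cebpb, a transcription factor of gluconeogenesis and the acute phase, gave 5.88 and 5.14 in VEH, 7.40 and 5.36 in PEAK_140, 9.47 and 9.31 in CONS_140 and 8.25 and 7.22 in CONS_180 (3.01, SE 0.68, limma adjusted p = 0.14, with the block 0.034). Fkbp5, the GR co-chaperone and a classical glucocorticoid target, gave 4.55 and 3.04 in VEH, 5.64 and 5.61 in PEAK_140, 7.94 and 7.28 in CONS_140 and 6.99 and 6.49 in CONS_180 (1.99, SE 0.49, limma adjusted p = 0.17, with the block 0.043). Foxo1, an insulin-restrained transcription factor of gluconeogenesis, gave 6.58 and 6.00 in VEH, 7.39 and 7.29 in PEAK_140 and 9.08 and 8.64 in CONS_140 (1.52). Nr0b2, the repressor SHP of bile acid synthesis, gave 7.23 and 6.69 in VEH, 7.97 and 8.10 in PEAK_140 and 9.84 and 9.40 in CONS_140 (1.59). In Fkbp5, Foxo1 and Nr0b2 the CONS_140, PEAK_140 and VEH libraries formed 3 ranges that did not overlap. Jun, an immediate early transcription factor, gave 8.56 and 8.49 in VEH, 7.55 and 7.54 in PEAK_140, 9.61 and 9.51 in CONS_140 and 8.03 and 7.46 in CONS_180 (2.02, SE 0.32, limma adjusted p = 0.066, with the block 0.033). Jun thus belonged to neither group, with PEAK_140 and CONS_180 below VEH and CONS_140 above it.

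Several genes known for their response to CORT passed neither fit and had close values in the 2 patterns at 140 min. Zbtb16, a glucocorticoid-induced transcription factor, gave 3.96 and 2.84 in VEH, 9.77 and 9.73 in PEAK_140 and 10.46 and 10.08 in CONS_140 (0.52, SE 0.63, limma adjusted p = 0.64). Tat, tyrosine aminotransferase, gave 12.80 and 12.56 in PEAK_140 and 12.93 and 12.73 in CONS_140 (0.15, SE 0.20, limma adjusted p = 0.66). Lpin1, a phosphatidate phosphatase and transcriptional coregulator, gave 7.53 and 5.85 in VEH, 11.24 and 10.95 in PEAK_140 and 11.33 and 10.86 in CONS_140 (0.00, SE 0.47). Got1, an aspartate aminotransferase, gave 10.92 and 10.48 in PEAK_140 and 10.71 and 10.48 in CONS_140 (-0.11, SE 0.31). Insig1, the partner of Insig2, gave 10.62 and 10.84 in PEAK_140 and 10.95 and 10.64 in CONS_140 (0.07, SE 0.27), beside the 2.49 of Insig2. These differences were smaller than or close to their standard errors. A p above the threshold does not show equal levels, and the signs of Tat, Zbtb16, Insig1 and Igfbp1 turned with the scaling.

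Per1, a clock gene with a GR site, gave 7.17 and 6.76 in PEAK_140 and 8.26 and 7.47 in CONS_140 (0.90, SE 0.56, limma adjusted p = 0.45, with the block 0.11). G6pc, the last step of hepatic glucose output, gave 11.17 and 10.74 in PEAK_140 and 12.44 and 12.16 in CONS_140, where VEH gave 12.28 and 12.05 (1.34, SE 0.29, limma adjusted p = 0.13, with the block 0.092). Slc37a4, the transporter that supplies its substrate, differed by 0.87 (SE 0.35, limma adjusted p = 0.45). Sds, serine dehydratase, gave 7.75 and 7.09 in VEH, 11.16 and 10.56 in PEAK_140 and 10.11 and 9.80 in CONS_140 (-0.91, SE 0.36, limma adjusted p = 0.45, with the block 0.097). The groups did not overlap in G6pc or Sds, with G6pc higher and Sds lower in CONS_140, and neither passed. Igfbp1, a binding protein of Igf1, differed by 0.37 (SE 0.27), Myc by -0.32 (SE 0.46) and Apob, the structural protein of very low density lipoprotein, by 0.39 (SE 0.27). The fatty acid desaturases Fads1 and Fads2 were far below VEH in both groups. Fads2 gave 9.16 and 8.85 in VEH, 2.38 and 2.01 in PEAK_140 and 5.63 and 1.74 in CONS_140, so that only CONS_140 replicate 1 was higher. Ppargc1a, a coactivator of gluconeogenesis, lay between 3.10 and 3.86 in all 10 libraries. It gave 3.10 in both VEH and both NADIR_180 libraries, in CONS_140 replicate 2 and in CONS_180 replicate 2. At such low, shrunken values the narrow range does not show steady polymerase.

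List medians take each gene at its region with the highest mean, and calls count any region. For the list calls here and above, the share of all genes called with the block was 1.94% higher and 0.103% lower. It counts 16568 genes, of which 3415 had a mean above 5. In most lists most measured members did, as 12 of the 15 bile acid genes. A list share above it is therefore not by itself an excess. Fitted alone without the block, regions with a mean above 5 gave 307 higher and 35 lower of these 3415 genes. Over the 23 pathway lists, 21 had a median difference above 0, against medians of 0.25 for all tested genes and 0.65 for those with a mean above 5. Bile acid synthesis and transport had the highest median, 0.80, with 3 of its 15 measured members called higher with the block (1.94% of all genes were): Slco1b2, Nr0b2 and Slc27a5, which activates bile acids for conjugation and differed by 1.93. Apolipoproteins followed at 0.76, with Apoc1 (1.93) and Apoe (1.51) called of 18, and the urea cycle at 0.75, with Nags (1.38) called of 10. The transcription factor and nuclear receptor list had a median of 0.67 over 19 members. It held 4 higher calls, Cebpb, Nr1i3 (the receptor CAR, 1.6), Prox1 (1.40) and Foxa2 (1.3), and 1 lower call, Onecut1. The P450 and conjugation list had 4 of 22 called higher and a median of 0.56.

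The list of GR targets and feedback genes had a median of 0.55, with 2 of its 23 measured members called, Fkbp5 and Cebpb. Of the 13 gluconeogenesis genes 2 were called, Foxo1 and again Cebpb (median 0.51). Of 25 amino acid breakdown genes 3 were called, Hal, Oat (ornithine aminotransferase, 2.43) and Gpt2 (an alanine aminotransferase, 1.26 in its called region and 0.95 at its highest), with a median of 0.47. The clock list had a median of 0.43 and 2 of 19 called, Arntl (1.69) and Nr1d2 (1.56). Triglyceride synthesis and lipid droplets had 3 of 16 called, Gpam, Dgat2 (the last step of triglyceride synthesis, 1.51) and G0s2 (an inhibitor of lipolysis, 1.49). Sterol synthesis had 1 of 24, Insig2. Fatty acid oxidation had 1 of 20, Bdh1, amino acid transporters 1 of 11, Slc3a2 (1.75), heat shock and folding 1 of 15, Atf4 (1.28 in 1 of its 3 regions, 0.70 with block adjusted p = 0.25 at its highest), and ribosomal proteins and translation 1 of 16, Tpt1 (1.35). The immediate early list had 2 higher calls of 28, Jun and Klf2 (2.66), and 2 lower, Cish and Socs2. Glycolysis, fatty acid synthesis and oxidative phosphorylation had no call by either limma fit, with medians of 0.27, 0.36 and 0.48.

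The acute phase and plasma protein list had the lowest median, -0.54. In 12 of its 21 measured members both CONS_140 libraries were below both PEAK_140 libraries, as in 3.72% of the genes with a mean above 5. That share is not matched for level. The list members had a median mean value of 10.72, while those genes had group medians of 5.84 to 6.58. None of the 21 was called by either fit. Fga and Fgg, chains of fibrinogen, gave 12.48 and 12.65 and 12.30 and 12.47 in PEAK_140, against 11.74 and 11.73 and 11.30 and 11.29 in CONS_140. Fgg differed by -1.09 (SE 0.20, limma adjusted p = 0.076, with the block 0.058). Hpx, the haem scavenger haemopexin, gave 11.39 and 12.03 in PEAK_140 and 10.37 and 10.05 in CONS_140 (-1.50, SE 0.27, limma adjusted p = 0.075, with the block 0.056). Lcn2, an iron-sequestering protein induced in inflammation, gave 6.45 and 6.36 and then 2.87 and 2.21 (-3.87, SE 0.78, limma adjusted p = 0.095, with the block 0.064). In the opposite direction were Ttr (0.97) and Rbp4 (0.81), carriers of thyroid hormone and retinol. Complement and coagulation had a median of -0.02, with 8 of 27 below and only Kng1 called, and cytokine signalling a median of 0.04, with Cxcl1 and Il1r1 called lower and Cxcl12 higher of 19. These members, apart from the 5 genes called over 10 libraries, are calls with the block only.

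**Figure D4:**
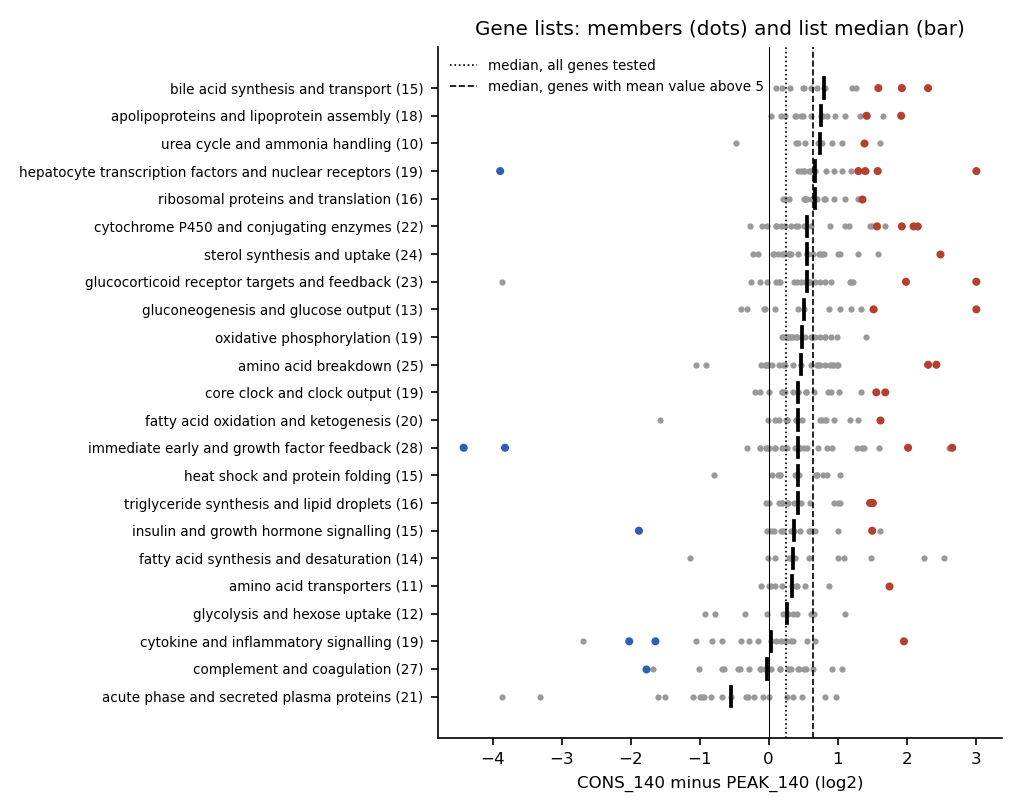
Difference between CONS_140 and PEAK_140 (log2, horizontal axis) of the measured members of 23 gene lists (rows, with the number of members measured). Dots are genes at their region with the highest mean, red or blue where that region was called higher or lower with the replicate block (Gpt2 and Atf4, called in another region, are grey), short bars list medians, and the vertical lines the medians of all tested genes (0.25, dotted) and of genes with a mean above 5 (0.65, dashed). The acute phase list is centred at -0.54 and the bile acid list at 0.80.

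The tissue matched its label: the 8 hepatocyte marker genes had a median of 11.05 over the libraries. Of 50 markers of other cell types in 7 lists, 32 were tested, 5 had a mean above 5 and none was called with the block. Their list medians lay between -0.04 and 0.37. The sum of the linear values of the stellate and fibroblast list was 29.9 and 31.5 in PEAK_140 and 181 and 54.1 in CONS_140, and Pdgfrb made up most of it, at 4.34 and 4.45 against 7.39 and 5.47 (2.04, SE 0.52, limma adjusted p = 0.18). Col1a1 and Lrat were below 2 in all 4 libraries. The Kupffer cell list summed to 137 and 166 in PEAK_140 and 251 and 141 in CONS_140, and the endothelial list to 130 and 154 and then 220 and 128. In all 3 lists CONS_140 replicate 1 was the highest of the 4, and their part in the higher calls was not tested.

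The pattern difference at 140 min was set against that at 180 min, CONS_180 minus NADIR_180, in 1 interaction contrast with no shared library. It called 11 genes (0.0664%) in limma, 5 with a larger CONS excess at 140 min (0.0302%) and 6 with a larger one at 180 min (0.0362%), and 2455 regions had an unadjusted p below 0.05. Hacl1 had the greatest value: -2.07 at 140 min and 3.09 at 180 min (interaction -5.16, SE 0.49, limma adjusted p = 0.0019). LOC299282 (-4.13) and Serpina3c (-3.69) had the same limma adjusted p of 0.0019. Klf12 was 2.88 and -1.68 (4.56, SE 0.55, limma adjusted p = 0.015). No gene was called without CONS_140 replicate 1, CONS_180 replicate 1 or CONS_180 replicate 2 (1722, 3053 and 1210 regions at an unadjusted p below 0.05). Among the 322 and the 17 genes the median differences at 180 min were -0.06 and 0.94. Against VEH, PEAK_140 changed 168 genes (1.01%) and CONS_140 136 (0.821%), comparisons that share the VEH libraries. These counts were 38 for CONS_140 without its replicate 1, 2613 without its replicate 2 and 11 without the 180 min VEH library, and for PEAK_140 they lay between 10 and 55 when any 1 of its 4 libraries was left out.

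GR itself was compared at the same time in 3981 GR regions from separate ChIP-seq libraries. The paper describes chromatin aliquots of each replicate precipitated for either GR or pSer2 Pol2, so the 2 assays may share rats. Per the study's methods GR tags were scaled to the tags within binding regions and not to total tags, so the level of every GR difference depends on that scaling, and shares and medians are to be read against those of all GR regions. Of these, 2 were called (0.0502%), 1 higher (0.0251%) and 1 lower (0.0251%) in CONS_140. The median difference was -0.58, and 560 regions passed an unadjusted p of 0.05. Within 50 kb of the start, 16 of the 17 lower genes had a GR region. Their 48 regions had a median difference of -1.94, and in 35 (72.9%) both CONS_140 libraries were below both PEAK_140 libraries and in none above, against 44.9% below over all GR regions. In part of them, as near Cish, Socs2, Steap4, Wfdc21 and Abhd2, the CONS_140 GR library labelled replicate 25 lay below 0, near the lower VEH library. At 12.7 kb before the shown Steap4 region, in an annotated transcript promoter, it gave -1.01, against 2.93 in the other CONS_140 library. In others both were well above 0, as at 9.94 kb after the start of Il1r1 (3.61 and 4.02). How far that library moved the median was not tested. Near the higher genes, 152 of 322 had a GR region, and their 236 regions had a median of -0.01, with 26.7% below and 19.5% above. These are counts and medians, with no set test.

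The only called GR region near a named gene was 46.0 kb before the start of Hacl1 (chr16:7803911-7804536). It gave 7.18 and 7.10 in PEAK_140, 4.16 and 3.95 in CONS_140, 6.57 and 6.03 in CONS_180 and 3.42 and 3.43 in VEH (-3.09, SE 0.37, limma adjusted p = 0.035). GR there was high in the same groups as pSer2 Pol2 on Hacl1. At 37.6 kb after the start of Igf1, GR gave 7.10 and 6.81 in PEAK_140 and 5.51 and 5.51 in CONS_140, and at the start of Kng1 6.99 and 6.5 and then 5.69 and 4.97. Over the start of Cish it gave 5.82 and 5.15 in PEAK_140 and 4.54 and -0.79 in CONS_140. The last value belongs to the CONS_140 GR library labelled replicate 25, which at that site lay at the level of the lower VEH library (-0.86). Without it 7 GR regions were called, and without the other CONS_140 library 405.

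RNA was measured by sequencing at 180 min only, in 3 libraries each of pulsatile or constant CORT and their vehicles. The difference between the constant and the pulsatile response was called in 4 of 14092 genes (0.0284%) in edgeR, with 1749 at an unadjusted p below 0.05. Ppargc1a was 1 of the 4 (log2 1.95, edgeR adjusted p = 0.032). None of Klf12, Ces1f, Insig2 and Slco1b2 was called, and Cxcl10 had no RNA test. DESeq2 called 215 genes in the same comparison, and the RNA was taken 40 min after the pSer2 Pol2 samples described here.

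**Figure D5:**
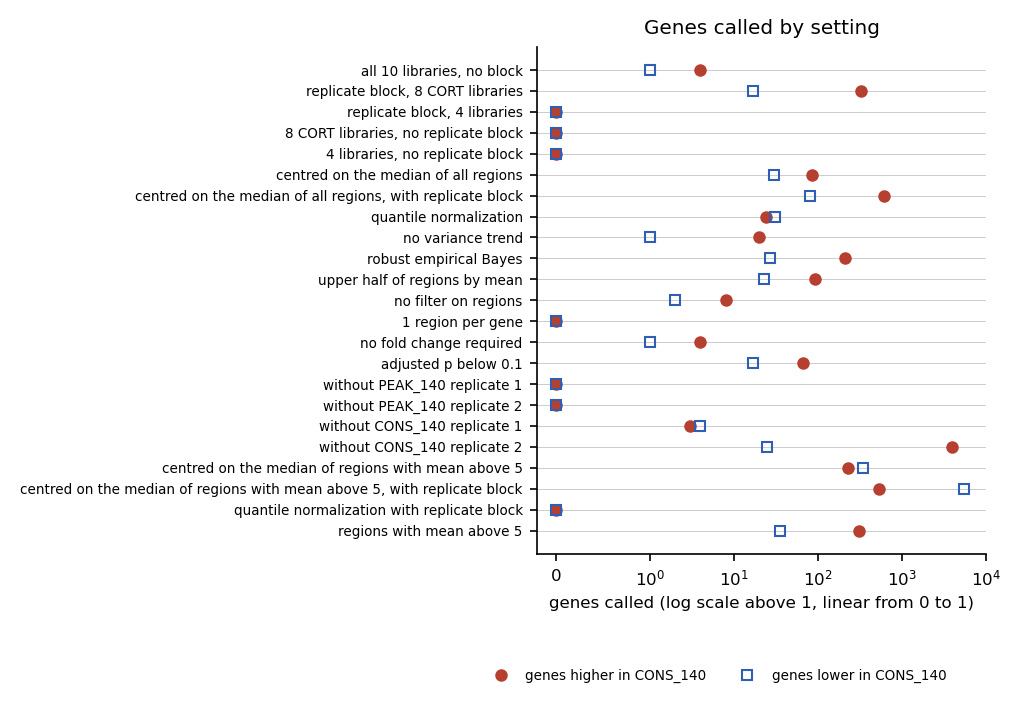
Number of genes called higher (filled circles) or lower (open squares) in CONS_140 than in PEAK_140 under each setting (rows); the horizontal axis is logarithmic above 1. The larger side moves from 0 to 5443 genes with the library left out, the block and the scaling, and the side with more genes changes without CONS_140 replicate 1, under quantile normalization and under centring on the regions with a mean above 5.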

How the data were processed

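The data were 42 rat liver libraries: 10 GR ChIP-seq, 10 pSer2 Pol2 ChIP-seq, 10 inputs and 12 RNA-seq. Per the labels and the study's methods, ChIP reads were aligned to rn6, pSer2 Pol2 tags were counted with HOMER 4.9.1 in coding regions longer than 320 bases up to 10 kb from the start, input was subtracted, and the authors deposited 1 value per library, scaled to total tags, from HOMER's DESeq2 step. Although named tag counts in the headers, the deposited values were read as the authors' regularised log2 values, since fractions and negative numbers occur and low regions are drawn to their average. The submitters' processing notes also name Trimmomatic 0.36, STAR, SAMtools and featureCounts 1.6.2. The deposited RNA-seq counts were raw reads per gene, which the authors counted with featureCounts over Ensembl exons. The authors' own fold changes and p-values, held in the same tables, were not used, nor were the inputs.

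Groups came from the sample labels. pSer2 Pol2 values were fitted in limma 3.58.1 (R 4.3.3) over all 10 libraries with group means, a variance trend and Benjamini-Hochberg adjustment over 38315 regions, and again with the replicate number as a block over the 8 CORT libraries (the VEH labels carry no number). A gene counts once over its regions and is shown by its called region with the greatest change, or by its highest mean. GR values, which the authors scaled to tags within binding regions, were fitted the same way over 10 libraries, and RNA counts with edgeR 4.0.16 as an interaction over genes with more than 10 reads in all. Scripts were tested on simulated data. Depth was 4938473 to 9326927 tags per pSer2 Pol2 library and 2051977 to 6715803 per GR library, and 3956379 to 7777219 counts per RNA library. With 2 pools per group, p-values cover the spread between pools. In the fits over 10 libraries the 2 VEH pools, from 140 min and 180 min, formed a single group. Any VEH difference between those times therefore enters the standard errors and p-values of these fits. The fit over the 8 CORT libraries holds no VEH library.

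Genes were named if called without the block, if among the 10 largest changes in each direction with the block and not overlapping, if a listed member called in either fit, or if on a fixed list of 17 (Sds, G6pc, Slc37a4, Lpin1, Apob, Myc, Igfbp1, Igf1, Fkbp5, Zbtb16, Per1, Tat, Got1, Ppargc1a, Fads1, Fads2, Insig1), and otherwise up to 4 members of a list by highest mean. The 4 promoters, the last of the 17 lower genes, the acute phase genes with the lowest values, Pdgfrb and the genes named as called without 1 library were chosen after their values were seen. The libraries, the gene lists and the rule were chosen with earlier results of these data known. Alternatives were the block, the libraries fitted, centring, quantile normalization, the variance trend, robust variance estimation, filters, thresholds and leaving out each library. Promoters are from the RefSeq table of GRCr8, matched by symbol, and coordinates of regions are rn6.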

Additional observations from a re-analysis of the deposited data

Results flagged for a closer look

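The difference between constant and pulsatile CORT was not the same at 140 min as at 180 min in 11 genes, all named above, by the interaction of pattern and time in limma over 10 libraries (adjusted p below 0.05 and over 1.5-fold). A positive value is a larger excess of the constant infusion at 140 min. The values were 4.56 in Klf12, 3.44 in Insig2, 3.31 in Ces1f, 3.17 in Cyp2a1 (SE 0.44, adjusted p = 0.039) and 3.14 in Hal (SE 0.46, adjusted p = 0.044), all genes whose PEAK_140 libraries were the lowest of the 10. Negative values were found in Hacl1 (-5.16), LOC299282 (-4.13, adjusted p = 0.0019), Serpina3c (-3.69, adjusted p = 0.0019), Lpin1 (-4.73, SE 0.67, adjusted p = 0.039), Got1 (-3.10, SE 0.45, adjusted p = 0.042) and Insig1 (-2.75, SE 0.38, adjusted p = 0.039).

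In Lpin1, Got1 and Insig1 the difference at 140 min was 0.00, -0.11 and 0.07, while CONS_180 exceeded NADIR_180 by 4.73, 3.00 and 2.82. Lpin1 gave 6.57 and 6.22 in NADIR_180 and 11.32 and 10.92 in CONS_180. No gene was called in this contrast without CONS_140 replicate 1, CONS_180 replicate 1 or CONS_180 replicate 2. Groups of 2 were too small to test for outlying samples, although CONS_140 replicate 1 stood apart in its median value, as given above.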

How the results depend on the processing

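The count of genes called between CONS_140 and PEAK_140 depended on the setting (5 over 10 libraries without the block). It was 339 with the replicate block over the 8 CORT libraries, and 0 in limma with the replicate block over the 4 libraries, over the 8 CORT libraries without it, over the 4 libraries without it and with 1 region per gene (2555, 3384, 2021 and 1421 regions at an unadjusted p below 0.05). Centring each library on the median of all regions gave 116, and 691 with the block. Quantile normalization gave 55 (24 higher, 31 lower), no variance trend 21, robust estimation 238, the regions above the median mean 115, no filter on regions 10 and an adjusted p below 0.1 gave 83. Requiring no fold change left it at 5. Among settings chosen after seeing the data, centring on the regions with a mean above 5 gave 569 (227 higher, 344 lower), and with the block 5955 (534 higher, 5443 lower), quantile normalization with the block 0 (3540 regions at an unadjusted p below 0.05), and only regions with a mean above 5 gave 341. Leaving out 1 library gave 0 to 3936 genes, and 0 to 3900 with the block. Of the 5 genes, 5 were called with the block over the 8 CORT libraries, with either centring and with robust estimation, 4 under quantile normalization and with only regions with a mean above 5, 3 with no variance trend and with no filter, and 0 in the settings that called no gene.

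Replicate numbers were checked as pairs: the correlation of the differences between replicates was 0.178 between CONS_140 and PEAK_140, and 0.155 to 0.553 over the 6 pairs of CORT groups. With 2 pairs this leaves the block unproven. No paired analysis was possible for GR because the second CONS_140 library is labelled 25, nor against VEH, whose labels carry no number. The contrast of 140 min with 180 min (11 genes) gave 19 with the replicate block, 123 with centring on all regions, 26 with no variance trend, 503 with centring on the regions with a mean above 5, and 0 to 3512 when 1 library was left out. GR (2 regions) gave 1 with centring, 20 over 4 libraries, 0 with no variance trend (581 at an unadjusted p below 0.05) and 0 to 405. RNA (4 genes) gave 215 with DESeq2, 204 with all genes with any read, 9 with the replicate block and 1 to 288. Counts against VEH were 10 to 55 for PEAK_140 (168) and 11 to 2613 for CONS_140 (136).

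Over all settings of single genes, 1020 values kept their direction and side of the threshold, 431 passed it newly, 42 lost it and 26 turned sign, none of the last in a called gene of the fit without the block. Centring on all regions, with or without the block, turned Tat (-0.09) and Insig1 (-0.16). Centring on the regions with a mean above 5, with or without the block, turned Igfbp1 (-0.35), Tat (-0.57), Zbtb16 (-0.19), Apob (-0.32) and Insig1 (-0.65). Quantile normalization, with or without the block, turned Insig1 (-0.10). With 1 library left out, the values ran from -0.46 to 3.43 in Fads2, -0.28 to 2.46 in Fads1, -0.09 to 0.22 in Insig1, -0.82 to 0.18 in Myc, -0.43 to 0.33 in Ppargc1a, -0.24 to 0.23 in Lpin1 and -0.33 to 0.11 in Got1. Fads1, Fads2 and Insig1 turned without CONS_140 replicate 1, Myc and Ppargc1a without CONS_140 replicate 2, Lpin1 and Got1 without CONS_140 replicate 2 or PEAK_140 replicate 1, and Insig1 also without PEAK_140 replicate 1. The causes were not tested.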
